A study of Mus musculus with 4 samples.

Results

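Ribosomal protein genes encode the proteins of the cytosolic ribosome, and they were chosen by symbol: every listed gene whose symbol begins with Rpl or Rps and a number, the stalk proteins Rplp0 and Rplp1, and Rpsa, with S6 kinases and pseudogene symbols left out. The rule found 75 of the 28250 genes listed, 46 of the large subunit and 29 of the small subunit. The genes came from RNA-seq of TBV2 mouse embryonic stem cells (ESCs), a feeder-dependent line of the 129/SvP strain. The cells had been grown with LIF on gelatin, and all of them were kept for 24 h either with solvent or with 5 µM MS-275, an inhibitor of class I histone deacetylases. Each condition had 2 libraries, replicate 1 and replicate 2, made from RNA that was selected for poly(A) and copied with random hexamers. The sources do not say whether the wild type cells or their EGFP-transgenic derivative were sequenced, nor whether the replicates were separate cultures, so the p-values measure only the spread between these libraries, which may be technical.

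Each ribosome carries 1 copy of nearly every ribosomal protein, so cells make these proteins in matched amounts, and fast-dividing cells such as ESCs spend much of their mRNA on them. Most ribosomal protein mRNAs begin with a cytosine followed by a run of pyrimidines, the 5′ terminal oligopyrimidine (TOP) tract, through which mTOR signalling controls their translation. Their mRNAs are short and abundant, and the mouse genome holds many processed pseudogenes, intron-less copies of these mRNAs. Some family members have a second gene that encodes a closely related protein, often expressed in a few tissues only.

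The shared start is shown first. In the RefSeq promoter table of GRCm38.p6, which held 58 of the 75 genes, a C followed by at least 4 pyrimidines on the strand of the gene began within 10 bases of an annotated start in 37 genes, or 63.8%. The share over all 27025 genes of the table was 34.4%. Such a C lay within 1 base of the start in 17 ribosomal protein genes, or 29.3%, and in 7.51% of all genes. A C inside a longer run of pyrimidines was counted as well, so the run itself may begin further upstream. The windows below hold 15 bases before the annotated start and 15 bases from it on, with the tract in capitals from the counted C on. Rps6, Rps18 and Rpl35 show a counted C at the annotated start itself, with further pyrimidines directly before it. Rps16 shows a window in which no tract was found within the searched distance.
Rps6, chr4:86857353-86857382, minus strand: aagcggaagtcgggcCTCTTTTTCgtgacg
Rps18, chr17:33955651-33955680, minus strand: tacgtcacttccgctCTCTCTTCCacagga
Rpl35, chr2:39005117-39005146, minus strand: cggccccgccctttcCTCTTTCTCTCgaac
Rps16, chr7:28350674-28350703, plus strand: cccgcttctgtcgtgacgtagcactcaatg
A match of letters is a description and says nothing on translation in these cells.

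The values deposited were a normalized expression signal per gene. They behaved as a level per exon base: over 7601 genes with at least 95% unique sequence and at least 100 alignments, dividing the values of solvent replicate 1 by the alignments deposited with solvent replicate 2 left an interquartile range of 1.13 on the log2 scale, which was 0.44 once exon length was taken into account. Replicate 1 values were set against replicate 2 alignments here for a reason given in the next paragraph. With the alignments deposited with the same library, the range narrowed less, from 1.22 to 0.88 in solvent replicate 1 and from 1.55 to 0.95 in solvent replicate 2. The alignments deposited ranged from 9785619 to 23467935 a library. Those deposited with replicate 1 held repeats, since 53.2% of them with solvent and 54.4% with MS-275 fell on a position and strand already used. Those deposited with replicate 2 held no repeats.

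Values and alignments deposited for the same library did not match in every respect. The mitochondrial gene ND5 had a value of 1.59 in solvent replicate 1 and 1.41 in MS-275 replicate 1, and it was at 0 in both libraries of replicate 2. The alignments of replicate 1 held 0 on the mitochondrial genome, however, while those of solvent and MS-275 replicate 2 held 13431 and 13889. Over 69 ribosomal protein genes, the values of solvent replicate 2 gave a Spearman rho of 0.829 with all alignments deposited with solvent replicate 1 and of 0.683 with those deposited with replicate 2. Counted as distinct positions, the alignments deposited with replicate 1 gave 0.686, so the files differed here only when repeats were counted. The values of solvent replicate 1 gave 0.789 with distinct positions deposited with replicate 1 and 0.807 with those of replicate 2. All of these are descriptions over genes that share libraries and lengths. Whether the alignments of the 2 replicates had been exchanged at deposit was not settled. Alignments are therefore named here by whether their file held repeats, and replicate numbers are those of the values.

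The level of the ribosomal protein genes differed more between replicates than between conditions. The median value of the 75 genes was 0.147 in solvent replicate 1 and 0.116 in MS-275 replicate 1, but 0.991 in solvent replicate 2 and 1.15 in MS-275 replicate 2. Together the 75 genes made up 0.671% and 0.599% of all summed values in the replicate 1 libraries and 5.54% and 5.51% in those of replicate 2. Both conditions thus showed the same order, with replicate 2 high. The genes were also spread more widely in replicate 2, where the 90th percentile of the genes tested was 91.4 times the 10th with solvent and 125 times with MS-275. In replicate 1 the same ratio was 19.2 and 18.1. Other levels moved with the replicate as well. The 18S rRNA gene Rn18s went from 0.700 to 34.1 with solvent and from 0.751 to 47.1 with MS-275. In limma, 6 of 8 ESC markers were called higher in replicate 2 (8.96% of all genes tested), with a median difference of 1.60. So were 19 of 30 translation initiation factors, with a median of 0.996. The part of these genes in the result was not tested.

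**Figure D1:**
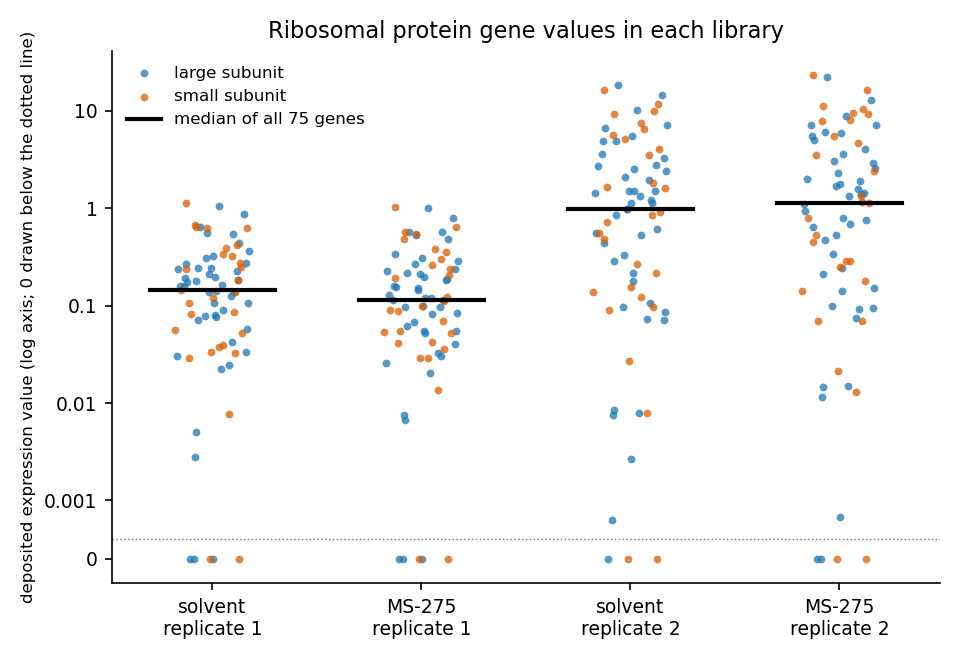
Deposited expression value of each of the 75 ribosomal protein genes (points, log axis, zeros drawn below the dotted line) in the 4 libraries, coloured by subunit, with the median of all 75 genes as a bar. The medians of 0.147 and 0.116 in replicate 1 lie below those of 0.991 and 1.15 in replicate 2, and the points spread more widely in replicate 2.

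Of the 75 genes, 70 reached 0.001 in at least 2 libraries and were tested. In a limma fit with treatment as a covariate, 59 of these 70 were higher in replicate 2 at a Benjamini-Hochberg adjusted p under 0.05 and 0 were lower, where 8.96% of the 20336 genes tested were called higher and 20.9% lower. The median difference of the 70 genes was 3.02 on the log2 scale, or 8.09-fold, against −0.29 over all genes tested. It was 2.74 with solvent and 3.09 with MS-275. A total of 68 of 70 genes were higher in replicate 2 with solvent and 67 with MS-275. Over all genes tested, 29.4% were higher with solvent and 33.3% with MS-275. Scaling by median ratio gave a median of 3.26, and quantile normalization gave 2.23. Over all genes tested, median-ratio scaling gave −0.09 with solvent and −0.14 with MS-275. Quantile normalization gave −0.07 and −0.09. With no filter on low values, 0 of the genes passed, although the median was 2.81. On the alignments the direction depended on which file belonged to which replicate: taken as deposited, the median was −3.02 on all alignments and −0.43 on distinct positions, and with the replicates exchanged it would be 3.02 and 0.43.

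The increase was not of 1 size. Rps16, a protein of the small subunit, had values of 0.0293 and 1.65 in solvent replicates 1 and 2, and of 0.0417 and 3.53 with MS-275. Replicate 2 was thus 56.4 and 84.5 times replicate 1, with a log2 difference of 5.92 ± 0.24 (SE, limma adjusted p = 2.15e-10). The fit left 1 residual degree of freedom for each gene, so this p rests largely on the spread pooled over all genes. Rps20, which lies in the head of the small subunit, had 0.273 and 11.7 with solvent and 0.208 and 16.6 with MS-275. These 2 genes had the largest differences of the 70, followed by Rpl37a (5.72 ± 0.28) and Rpl35a (5.48 ± 0.27), both of the large subunit. At the other end, Rpl3l, the striated muscle form of Rpl3, had 0.0225 and 0.00797 with solvent and 0.0202 and 0.0148 with MS-275, a difference of −0.71 ± 0.32 (adjusted p = 0.101). Rps6, the target of the S6 kinases, had 0.0337 and 0.0272 with solvent and 0.0289 and 0.0212 with MS-275. Rps27 and Rpl15 also lay close to 0, at −0.0019 and 0.20. In all, 36 genes were at least 8-fold higher in replicate 2 and 15 stayed within 2-fold.

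Genes with a large difference between replicates tended to have many repeated alignments. In the solvent file with repeats, a ribosomal protein gene had a median of 10.7 exon alignments for each distinct position, against 1.47 over 13299 genes. Rps26 reached 50.8 and Rps16 reached 49.9, while Rpl15 had 2.88, Rps6 had 2.50 and Rpl3l had 1.11. Across 66 ribosomal protein genes this ratio and the log2 difference between replicates gave a Spearman rho of 0.707, as a description over genes of the same libraries. The ratio gave nearly the same rho, 0.715, with the plain value in solvent replicate 2, and 0.422 with that in solvent replicate 1. A link with the difference was thus not told apart from a link with the level in replicate 2. Not every gene followed this, since 8 genes had under 5 alignments for each position and a difference over 3: Rpl10a, Rpl12, Rpl24, Rpl3, Rpl31, Rpl36a, Rpl37a and Rps15a. In Rpl10a, Rpl3 and Rpl36a, however, the ratio rested on only 12, 12 and 19 distinct positions. The exons counted for Rpl24 and Rps15a covered 5676 and 5992 bases, where the median of the family was 923. Their ratios may thus take in more than the mRNAs of these genes. The part of repeats in the values was not tested, since the formula behind the values is not given in the sources used here.

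**Figure D2:**
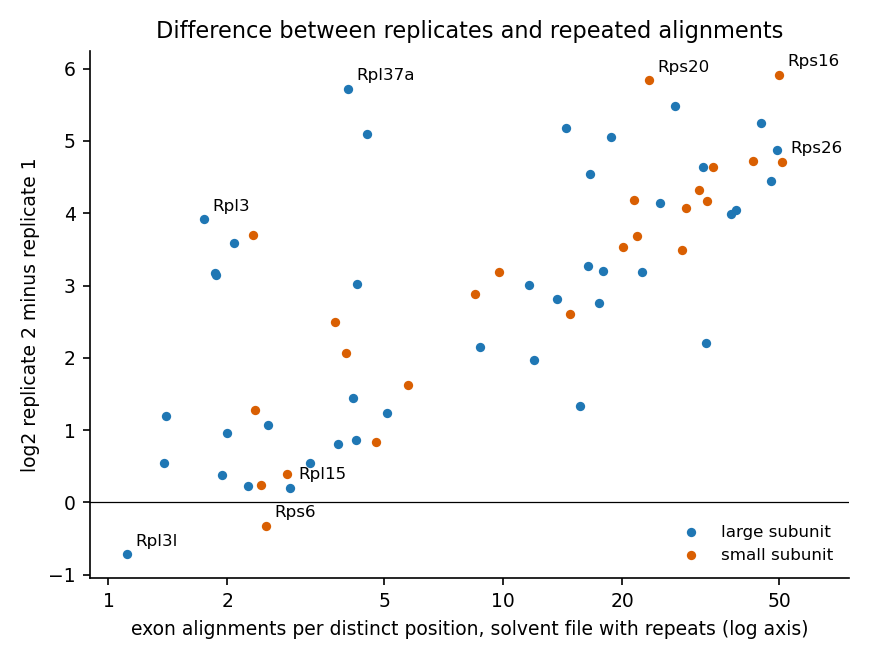
Difference between replicate 2 and replicate 1 (log2, from the limma fit) against the number of exon alignments for each distinct position in the solvent file with repeats (log axis), for 66 ribosomal protein genes coloured by subunit. Genes with many alignments for each position, such as Rps16 and Rps26, lie high, and genes such as Rpl3l and Rps6 lie near or below 0. Genes such as Rpl37a and Rpl3 lie high with few repeats, in Rpl3 on only 12 distinct positions.

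The share of the family in the alignments was far smaller when each position was counted 1 time. In the files with repeats, ribosomal protein genes held 1.81% (95% Wilson interval 1.80 to 1.81) of all exon alignments with solvent and 2.16% (2.16 to 2.17) with MS-275. Counted as distinct positions in the same files, they held 0.267% (0.263 to 0.271) and 0.297% (0.293 to 0.302). In limma-voom on all alignments, 60 ribosomal protein genes were lower in the files deposited with replicate 2 than in those with replicate 1 (background 15.1%) and 0 higher (background 7.09%). On distinct positions 15 were lower (background 4.02%) and 0 higher (background 2.28%). The files without repeats held a share of 0.230% (0.226 to 0.233) and 0.210% (0.207 to 0.214). These intervals cover counting error only. In the files with repeats, all positions used in ribosomal protein exons had a sequence found once in mm9. In the files without repeats nearly all did, such as 1176 of 1195 in Rpl4 with solvent. A ribosomal protein gene had a median of 50.7% of such positions, against 99.9% over 20261 genes. Reads from its other positions are thus nearly absent, and the shares are likely to understate the family. Counting each position only 1 time thus changed the share by more than the files then differed.

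A short gene offers few positions, and this bounds what distinct positions can show. The exons of the ribosomal protein genes covered a median of 923 bases, from 345 in Rps27 to 5992 in Rps15a, against 2575 over 20261 genes. In the solvent file without repeats, Rpl4 had used 77.2% of all its uniquely placed position and strand combinations, and 8 of 66 ribosomal protein genes had used at least 50% of theirs (Rpl4, Rpl8 and Rps26 among them). This share was 0.15% over 20009 genes. For these 8 genes at most 50% of the positions were left to a further read. In the same file 58.0% of the alignments within the spans of ribosomal protein genes lay outside their exons, against 32.2% over all genes. In the solvent file with repeats these shares were 20.7% and 27.0%. Introns of many ribosomal protein genes hold small nucleolar RNAs, which were not counted apart.

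With MS-275, no ribosomal protein gene passed the test when the replicates were not paired. Of the 70 genes tested, 0 were higher and 0 lower in limma, where 0.00492% of all genes were called higher and 0.0% lower. Before adjustment, 0 of the 70 genes had a p under 0.05, and 2974 higher and 564 lower genes of all 20336 did. The median log2 difference of the 70 genes was 0.01, with a range of −0.69 to 0.77, against 0.20 over all genes. The fit had little precision for these genes, since the median SE was 1.10 and it was 0.462 over all genes. With limma-voom on alignments and no block, 0 ribosomal protein genes passed on distinct positions, where 13.5% of genes were called higher and 9.86% lower, and 0 on all alignments, where 0.0% of genes were called.

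With the replicate number as a block, the median SE fell to 0.269, and 1 ribosomal protein gene was higher and 2 were lower, where 21.0% of all genes were called higher and 6.46% lower. A share of 3 in 70 lies below this background. Rps16 was higher, at 0.0293 with solvent and 0.0417 with MS-275 in replicate 1, and at 1.65 and 3.53 in replicate 2. Its log2 difference was 0.77 ± 0.24 (adjusted p = 0.0257), and it was higher in both pairs. Rpl6, a protein of the large subunit, was lower, at 0.214 with solvent and 0.152 with MS-275 in replicate 1 and at 0.990 and 0.527 in replicate 2 (−0.69 ± 0.24, adjusted p = 0.0396). Rpl30, which lies at the interface of the subunits, was lower as well, at 0.180 and 0.0969 in replicate 1 and at 0.286 and 0.210 in replicate 2 (−0.65 ± 0.22, adjusted p = 0.0397). Each of the 3 genes kept its direction in both pairs, with 1 library per condition in a pair. When the replicates were pooled, the conditions overlapped.

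None of these 3 calls held under every choice. Without a trend in eBayes, their adjusted p-values were 0.0507, 0.0632 and 0.0780, in the order Rps16, Rpl6 and Rpl30. Over 9 blocked alternatives, the adjusted p ranged from 0.0164 to 0.331 for Rps16, from 0.00550 to 0.903 for Rpl6 and from 0.00741 to 0.294 for Rpl30, and the direction of each stayed the same. On distinct positions the log2 difference of Rpl6 was −0.05. In limma-voom with the block, distinct positions gave 0 ribosomal protein genes higher (background 24.0%) and 3 lower (background 22.4%), which were Rpl9, Rps15a and Rps20. All alignments gave 1 higher (background 19.6%), again Rps16, and 6 lower (background 20.4%), which were Rpl18, Rpl6, Rpl7, Rpl9, Rps15a and Rps4x. The exons counted for Rps15a covered 5992 bases, where the family median was 923, so its calls may take in more than its mRNA. Quantile normalization with the block called 0 ribosomal protein genes higher and 6 lower (Rpl12, Rpl18, Rpl30, Rpl6, Rpl7 and Rps4x), and over all genes it called 2936 higher and 2961 lower where the values as deposited gave 4277 and 1314.

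Other genes with large differences did not pass. Rps3a had 0.0390 and 0.0428 with solvent and MS-275 in replicate 1 and 0.122 and 0.287 in replicate 2 (adjusted p = 0.0821 with the block). Rps21 had 0.248 and 0.237 in replicate 1 but 4.11 and 9.31 in replicate 2, so its difference lay in 1 pair. Rpl29 was low in all libraries, at 0.00279 and 0.00750 in replicate 1 and at 0.00756 and 0.0116 in replicate 2. Rpl18 had 0.143 and 0.120 in replicate 1 and 1.51 and 0.787 in replicate 2, and Rpl12 had 0.0705 and 0.0618, then 0.852 and 0.476. Both were lower with MS-275 in each pair, with adjusted p-values of 0.0932 and 0.119 with the block.

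In the values as deposited, the 2 replicate pairs went opposite ways, and the direction in pair 2 depended on the scaling. In pair 1, 55 of 70 ribosomal protein genes were lower with MS-275, where 40.4% of all genes were lower, and their median log2 difference was −0.18 against 0.13 over all genes. In pair 2, 48 of 70 were higher, where 63.8% of all genes were higher, and their median was 0.21 against 0.24. The median of the ribosomal protein genes lay under that of all genes in both pairs. Large and small subunit genes had medians of −0.18 and −0.19 in pair 1, and of 0.15 and 0.30 in pair 2. With 1 library per condition in a pair, the difference between pairs could not be tested.

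Gene by gene, 34 of 70 ribosomal protein genes were lower in pair 1 and higher in pair 2, a pattern shown by 13.7% of all genes tested. After median-ratio scaling 27 of 70 showed it (12.7% of all genes) and after quantile normalization 20 of 70 (11.8%). Rpl38, which is known for its part in the translation of Hox mRNAs, was 1 of them, at 0.159 and 0.116 with solvent and MS-275 in replicate 1 and at 3.58 and 7.26 in replicate 2. Rps19, the gene most often mutated in Diamond-Blackfan anaemia, was another, at 0.147 and 0.0897 and then at 0.561 and 0.794. In both genes the 2 conditions changed places between the pairs. A further 21 genes were lower in both pairs (26.5% of all genes) and 14 higher in both (49.98%). In 3 genes, Rps27, Rps27a and Rps28, the 2 MS-275 values did not overlap the 2 solvent values, where 44.3% of all genes did not overlap. A change of at least 2-fold in the same direction in each pair was seen in 0 ribosomal protein genes, where 11.5% of listed genes rose and 2.04% fell so far. At 1.5-fold, Rpl29 and Rps27 were higher (background 17.9%) and 0 were lower (background 4.84%).

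**Figure D3:**
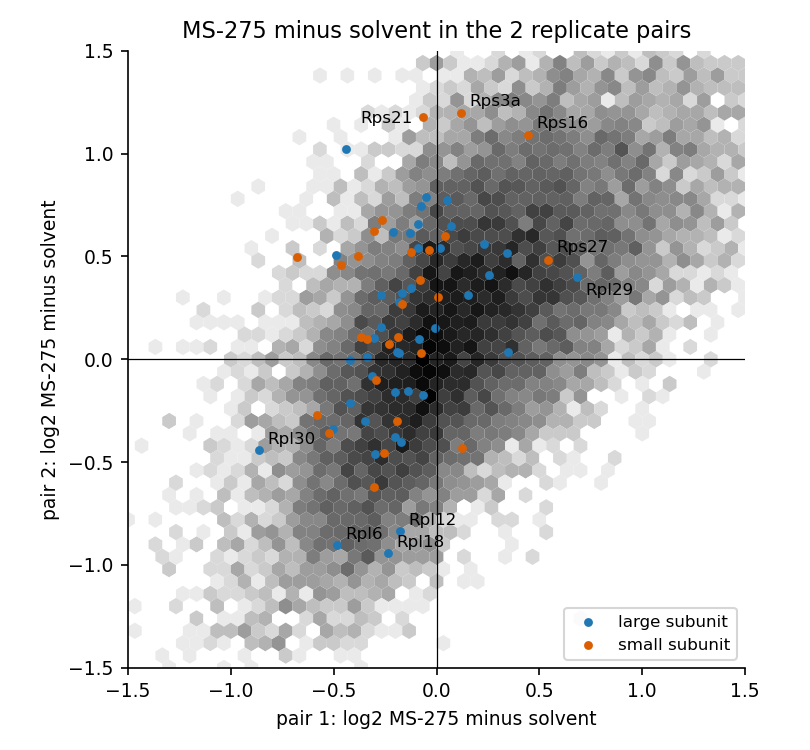
MS-275 minus solvent (log2) in pair 1 against pair 2 for 70 ribosomal protein genes (points, coloured by subunit) over the density of all genes tested (grey, darker for more genes, drawn within ±1.5). The upper left part holds 34 of the 70 points, Rps16 lies high in both pairs, and Rpl6, Rpl18, Rpl12 and Rpl30 lie low in both.

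After median-ratio scaling the median of the 70 genes was −0.23 in pair 1 and 0.07 in pair 2. In pair 2, 33 of 70 were lower, beside 41.2% of all genes. After quantile normalization it was −0.27 and −0.09, so that both pairs had the same sign. Quantile normalization moved the median of all genes to −0.02 and −0.03. The fall in pair 1 held in all 3 scalings, with 55, 58 and 59 of 70 genes lower. The share of all genes lower rose as well, from 40.4% to 43.4% and 51.2%.

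The alignments also differed in direction between files, but by the labels of deposit the order was the reverse of that of the values. Relative to all exon alignments, the files without repeats, deposited with replicate 2, gave a median of −0.12 over 64 ribosomal protein genes, with 46 of them lower with MS-275 where 44.0% of 12865 genes were lower. The files with repeats, deposited with replicate 1, gave a median of 0.25 over 70 genes, with 17 lower where 40.6% of genes were. Counted 1 time per position, these files gave 0.27 over 69 genes, with 9 lower where 41.0% of genes were. The contrast between the files was thus as large after repeated positions had been counted 1 time.

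Much of a ribosomal protein gene cannot be told from its copies by a short read. Of the 35-base windows that start in its exons, a ribosomal protein gene had a median of 50.7% that occur once in the mm9 genome, against 99.9% over 20261 genes. A total of 36 of 74 genes with exons in GENCODE M1 had under 50%, as did 6.88% of all genes. Rps27 had 0.478%, while Rpl3l had 100%. Across 69 genes the share of unique windows and the value in solvent replicate 1 gave a Spearman rho of 0.380, as a description.

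**Figure D4:**
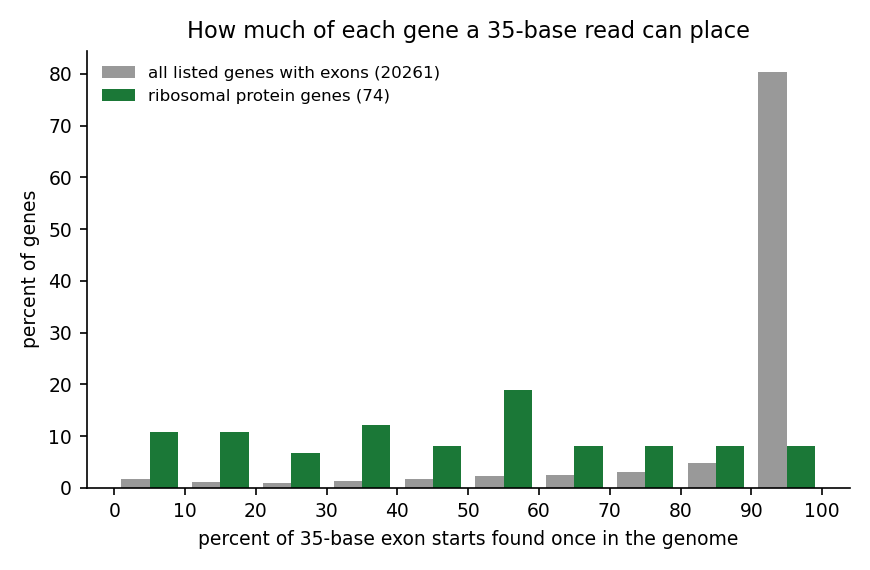
Share of genes (percent) by the percent of their 35-base exon windows found once in the mm9 genome, for 74 ribosomal protein genes and for all listed genes with exons. Most genes lie above 90%, while the ribosomal protein genes are spread over the whole range with a median of 50.7%.

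Values and alignments also differed for single genes. Rpl28, Rps2 and Rps23 were listed at 0 in all 4 libraries, as were 15.9% of all listed genes, and Rpl9 and Rpl10 had at most 0.00063 and 0.00265. Yet the exons of Rps2, which lies at the entry of the mRNA channel, held 3183 alignments at 141 distinct positions in the solvent file with repeats and 82 in that without. For Rpl28 these counts were 368, 173 and 74, and for Rps23 they were 239, 20 and 13. Rps12 and Rps27 were the reverse case: their exons held no alignment in the solvent files, but Rps12 had values of 0.237 and 0.484 with solvent. Only 9 of 313 exon windows of Rps12 and 1 of 209 of Rps27 occur once in mm9. The files hold few or no alignments at other positions, so little could be counted on these 2 genes. A value of these genes is thus not a count of the alignments deposited on their exons.

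Paralogs differed from each other at several bases of a 35-base window. The windows below, read from mm9, are 35 bases of coding sequence of 4 pairs, with the bases that differ between the pair in capitals.
Rpl10, chrX:71517622-71517656, plus strand: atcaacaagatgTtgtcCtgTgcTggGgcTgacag
Rpl10l, chr12:67385016-67385050, minus strand: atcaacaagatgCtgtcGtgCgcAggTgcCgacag
Rps27, chr3:90016932-90016966, minus strand: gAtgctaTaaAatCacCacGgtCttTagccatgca
Rps27l, chr9:66795394-66795428, plus strand: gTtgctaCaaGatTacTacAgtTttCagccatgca
Rpl39, chrX:34623991-34624025, minus strand: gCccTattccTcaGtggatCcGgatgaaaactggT
Rpl39l, chr16:10174464-10174498, plus strand: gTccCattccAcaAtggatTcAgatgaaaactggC
Rps4x, chrX:99381853-99381887, minus strand: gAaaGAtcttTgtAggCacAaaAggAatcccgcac
Rps4y2, chr6:148303611-148303645, plus strand: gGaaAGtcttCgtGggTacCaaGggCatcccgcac
The pairs differ at 6, 8, 7 and 9 of these bases, so a read of this length tells the paralogs apart. The windows of Rpl10, Rps27 and Rpl39 occur 7, 4 and 2 times in the genome, however, and those of Rpl10l, Rps27l and Rpl39l 1 time each. For Rps4x it was the other way round, with 1 occurrence against 2 for Rps4y2, as it was for Rpl22 and Rpl22l1 in a window not shown. Over the aligned coding sequence the 4 pairs shown were identical at 84.8%, 76.1%, 85.3% and 80.1% of bases. Windows of Rpl3 and Rpl3l, Rpl7 and Rpl7l1, and Rpl22 and Rpl22l1 differed at 11, 16 and 12 bases. The identity of these pairs was lower, at 74.4%, 62.5% and 70.2%.

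Rpl10 joins the large subunit late in its assembly and its gene sits on the X chromosome, and Rpl10l is its intron-less counterpart known from testis. Rpl10 had values of 0 and 0.00265 with solvent and of 0 and 0.00067 with MS-275, and Rpl10l had 0.268 and 0.444 with solvent and 0.342 and 0.637 with MS-275. In the alignments the genes lay closer together. Rpl10 had used 25% of its uniquely placed positions in the solvent file with repeats and Rpl10l had used 24.1%, while in the file without repeats these shares were 12.7% and 22.6%. At positions that can be told from all copies, Rpl10 was thus within 2-fold of Rpl10l in both solvent files.

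Rps27l, which is known as a target of p53, had values of 0.640 and 9.29 with solvent and of 0.569 and 11.2 with MS-275. Its paralog Rps27, a zinc finger protein of the small subunit, had 0.00766 and 0.00792 with solvent and 0.0135 and 0.0130 with MS-275. The values of Rps27 nearly matched between replicates in both conditions, and it was the gene with the fewest exon bases. Rps4x had 0.139 and 1.81 with solvent and 0.112 and 1.17 with MS-275, and Rps4y2, which in the mouse lies on chromosome 6, had 0.629 and 1.61, then 0.647 and 2.45. The 2 genes used their unique positions alike, at 43.8% and 44.4% in the solvent file with repeats.

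Rpl39 and Rpl39l, small proteins of the peptide exit tunnel, had 0.163 and 1.33 and then 0.541 and 1.21 with solvent, and 0.121 and 1.33 and then 0.569 and 1.90 with MS-275. Rpl22, an RNA-binding protein of the large subunit, had 0.649 and 18.5 with solvent and 0.572 and 22.4 with MS-275, and its paralog Rpl22l1 had 0.138 and 1.12, then 0.114 and 1.40. Both showed the fall in pair 1 and the rise in pair 2. Rpl7 had 0.158 and 2.74 with solvent and 0.127 and 1.99 with MS-275, while Rpl7l1 had 0.438 and 0.608, then 0.487 and 0.756. Rpl7 was lower with MS-275 in both pairs and Rpl7l1 higher in both, although neither passed on the deposited values without scaling. With the block, Rpl7 was lower on all alignments (−0.61, adjusted p = 0.0463 in limma-voom) and after quantile normalization. Rpl3, which lies near the peptidyl transferase centre, had 0.126 and 1.94 with solvent and 0.0977 and 1.57 with MS-275.

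Some family members have known roles outside protein synthesis. Rpl5 and Rpl11 carry 5S rRNA into the ribosome and bind Mdm2 when ribosome assembly fails. Rpl5 had 0.196 and 0.218 with solvent and 0.195 and 0.243 with MS-275, so its 4 values lay close together, and Rpl11 had 0.0331 and 0.0708, then 0.0405 and 0.0957. The stalk proteins Rplp0 and Rplp1 recruit elongation factors. Rplp0 had 0.186 and 2.80 with solvent and 0.188 and 4.07 with MS-275, and Rplp1 had 0.325 and 1.12, then 0.305 and 1.77. Rpsa, also known as the laminin receptor, had 0.0381 and 0.268 with solvent and 0.0290 and 0.288 with MS-275. None of these passed the test of treatment with or without the block.

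The rest of the translation machinery was compared by fixed lists, in the same fits. In limma without a block, 0 genes of these lists passed. Over all genes, 8.96% were higher and 20.9% lower in replicate 2, and with the block 21.0% were higher and 6.46% lower with MS-275. Of 22 other genes known as TOP mRNAs, 20 were higher in replicate 2, with a median of 2.13 over the list, and 1 was higher with MS-275 with the block, Tpt1 (0.76, adjusted p = 0.0207), which encodes the translationally controlled tumour protein. Their medians were −0.15 and −0.14 in pairs 1 and 2, and Eif4b had the lowest difference (−0.69, adjusted p = 0.121). Of 71 mitochondrial ribosomal proteins, which are encoded in the nucleus and have no part in cytosolic translation, 23 were higher and 2 lower in replicate 2, with a median of 0.47 over the list. Their medians in the pairs were −0.06 and 0.35, and with the block 7 were higher, led by Mrps33 (1.13, adjusted p = 0.00595), and 3 were lower, led by Mrpl19 (−0.81, adjusted p = 0.0114). Both counts lie below the shares over all genes.

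Genes for the making of ribosomes fell in part with the block. Of 47 ribosome biogenesis genes tested, 7 were lower and 0 higher, beside the 6.46% and 21.0% of all genes. Ubtf, a factor of RNA polymerase I transcription, had the largest fall (−1.20, adjusted p = 0.00236), and Taf1c the largest difference upward (0.66, adjusted p = 0.0621). Their medians were −0.15 and −0.28 in the pairs, the same sign in both. Of 19 aminoacyl-tRNA synthetases, 4 were lower, led by Lars (−0.74, adjusted p = 0.0498), 0 were higher, and Hars had the highest difference (0.10, adjusted p = 0.801). Of 30 initiation factors, 0 passed in either direction, with Eif1b at 0.65 (adjusted p = 0.0537) and Eif5 at −0.66 (adjusted p = 0.104). These p-values are from limma with the block and adjusted over all genes. Of 2 ribosomal protein pseudogene symbols, only Rps19-ps3 was tested (0.30, adjusted p = 0.497).

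Cell type markers stood beside these values. All 8 ESC markers were detected in each library, and with the block 2 were lower (6.46% of all genes) and 0 higher (21.0%), with Esrrb lowest (−1.34, adjusted p = 0.00844) and Dppa5a highest (−0.22, adjusted p = 0.662). The summed level of 8 feeder fibroblast markers was 0.287 and 0.268 with solvent and 0.539 and 0.626 with MS-275, and with the block 5 were higher (21.0% of all genes) and 0 lower (6.46%), with Col1a1 highest (2.41, adjusted p = 5.6e-05) and Dcn lowest (−0.72, adjusted p = 0.0728). The fibroblast markers were thus low beside the ESC markers, whose sums were 5.08 and 22.2 with solvent. Their part in the ribosomal protein values was not tested. In bulk RNA, fewer cells of a type and less RNA per cell cannot be told apart.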

How the data were processed

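RNA-seq was analysed in 4 libraries, 2 with solvent and 2 with MS-275, grouped by their titles. The authors mapped reads of 36 bases to mm9 and used Genomatix to turn them into a normalized signal per gene. The aligner, formula and handling of repeated reads are not given in the sources used here. The signal deposited by the authors is no count, so count tests were not applied to it. The alignments, also deposited, gave positions on mm9. Shorter lists and tables of ratios by the authors were not used.

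Genes that reached 0.001 in 2 or more libraries were tested: log2(value + 0.005) was fitted with limma 3.58.1 (lmFit, eBayes with a trend, R 4.3.3), with Benjamini-Hochberg adjustment over all 20336 genes. Fold changes are on the log2(value + 0.005) scale, which understates those of low genes. The replicate block was an alternative fit. It left 1 residual degree of freedom for each gene, so its p-values, for treatment and for replicate, rest largely on the spread pooled over genes. Pairing rests on headers of the authors' columns, where both libraries of replicate 1 are named old, and deviations of same-numbered libraries from their group means correlated at 0.764 over 20336 genes. Exon alignments of 35 bases were counted on GENCODE M1 genes on mm9 and tested with limma-voom, with trimmed-mean scaling, for genes that reached 10 in 2 or more libraries. Alignments were not spliced, so reads over exon junctions are not among them, and strand could not be used. Unique windows were found by searching every 35-base exon window on both strands of mm9. The scripts were tested on simulated data.

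The members, gene lists and tests were chosen with earlier results of these data known. Genes were named by a rule: the 4 largest rises and falls, the 4 largest and smallest replicate differences, 7 paralog pairs, 8 members with known roles (Rplp2 was not among the listed symbols), and the extremes of each other list. Genes outside it, such as Rpl38, Rps26 and those listed at 0, were named after their values were seen. Some items are not reported here. Coding identity from GENCODE M1 replaced protein identity, for which no table was used here. Python 3.11.15 with numpy 2.4.6, pandas 2.3.3, numba 0.67.0, scipy 1.17.1, biopython 1.88 and matplotlib 3.10.9 was used.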

Additional observations from a re-analysis of the deposited data

How the results depend on the processing

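Without the replicate block, the counts of ribosomal protein genes that passed with MS-275 stayed at 0 in both directions under 9 alternatives. With the block, 1 was higher and 2 lower. With the block and a pseudocount of 0.001, 1 was higher and 1 lower. With a pseudocount of 0.02 the counts were 1 and 2, with a filter on the mean (0.01) they were 1 and 0, with median-ratio scaling 1 and 3, with quantile normalization 0 and 6, with limma-voom on distinct positions 0 and 3, and with limma-voom on all alignments 1 and 6. With the block, no filter gave 0 and 0, where 0 of all 28250 genes were called, and no trend gave 0 and 0, where 3936 of all genes were higher and 1126 lower. Over all genes the other blocked fits called 2751 to 4277 higher and 1091 to 3190 lower. The pseudocounts, filters and variance model combined with the block, and the scalings within pairs, were added after seeing the data. Leaving out each library in turn gave 0 to 5 higher and 0 to 12 lower, and the median log2 difference of the family ranged from −1.67 to 1.49. The median was −1.46 without solvent replicate 1, 1.32 without solvent replicate 2, 1.49 without MS-275 replicate 1 and −1.67 without MS-275 replicate 2, since each of these fits is left with unequal numbers of high and low replicates. The lone library is assumed to vary like the other group. The counts from the fits with a library left out stand without the share of all genes called in them. Whether they lie above or below that share was not tested, and nothing is concluded from them.

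The difference between replicates called 59 genes higher and 0 lower. With no filter it called 0 higher. On quantile-normalized values its median was 2.23. On alignments the sign was turned, with medians of −0.43 on distinct positions (0 higher, 15 lower) and −3.02 on all alignments (0 higher, 60 lower). The files with repeats were deposited with replicate 1, and an exchange of the files, which was not settled, would give 0.43 and 3.02. At 1.5-fold in both pairs, 2 genes were higher. A tract counted from a C within 1 base of the start was found in 29.3% of ribosomal protein genes.

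Among named genes, the log2 difference of Rps16 was −2.35, that of Rpl37a −2.90 and that of Rpl35a −2.98 without MS-275 replicate 2 (3.89, 2.91 and 2.997 without MS-275 replicate 1), and that of Rps20 was −0.45 on distinct positions with the block. The cause was not tested. Alignments behind a single value are unknown, so no interval was given for values.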
